A study of Mus musculus with 36 samples.

Results

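The Slc25a genes encode the carriers that move solutes across the inner mitochondrial membrane, and their transcripts were followed in mouse cortical neurons after BDNF or KCl. Members were all genes of the RNA-seq table whose symbol starts with Slc25a and whose normalised read count averaged at least 10 over the 18 libraries. Of 48 such symbols among 26709 genes, 41 met this minimum and were tested with 16209 genes in all. The other 7 (Slc25a2, Slc25a21, Slc25a31, Slc25a34, Slc25a41, Slc25a43 and Slc25a54) were below it. One member, Slc25a5-ps, is a transcribed pseudogene.

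All neurons came from the cortex of CD-1 embryos at day 15 of gestation, pooled over embryos, and were grown for 7 days in vitro. Every culture was silenced for 2 h with 100 µM AP-5, which blocks NMDA receptors, and 1 µM TTX, which blocks sodium channels. BDNF (brain-derived neurotrophic factor, a ligand of the TrkB receptor) was then given at 10 ng/ml, or KCl (which depolarises the membrane) at 55 mM, for 1, 6 or 10 h. Control neurons were kept in AP-5 and TTX for 3, 8 or 12 h in all and are named by the 1, 6 or 10 h of the stimulated groups they go with. Stimulated cultures are listed with 2 h of silencing in all. Stimulus and time in AP-5 and TTX thus differ together from the controls and cannot be told apart. Each of the 9 groups had 2 RNA-seq and 2 ATAC-seq libraries, called biological replicates by the study, and whether these were separate cultures is not stated, so p-values measure the spread between these libraries. The 6 controls were pooled, and no member was called between control times.

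Proteins of this family share a fold of repeated membrane-spanning units and are made in the cytosol, carried across the intermembrane space by small TIM chaperones and inserted into the inner membrane. They exchange or co-transport nucleotides, phosphate, amino acids, carboxylates, cofactors and metal ions, and so connect the citric acid cycle and ATP synthase with the cytosol. In neurons several of them are controlled by calcium, among them the ATP-Mg/phosphate carriers and the aspartate/glutamate carrier Slc25a12, which have calcium-binding domains facing the intermembrane space.

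RNA libraries held 8.51 to 36.7 M reads. Neuronal markers (Tubb3, Map2, Rbfox3, Snap25, Slc17a7, Slc17a6 and Neurod6) summed to 43066 to 47748 normalised reads in controls and 38483 to 44410 at KCl 6 h, but astrocyte markers (Gfap, Aqp4, Slc1a3, Aldh1l1 and Gja1; 10558 to 15187 in controls), oligodendrocyte-lineage markers and dividing-cell markers (Mki67, Top2a, Pcna and Ccnb1; 4630 to 7294) were present too. Of the 5 microglial markers P2ry12 stayed under a mean of 10 and 4 exceeded it, C1qa being the highest at 52.7. Of the 3 endothelial markers Pecam1 averaged 12.9, Flt1 4.93 and Cldn5 1.13. Library KCl 6 h B stood apart in that Gm42418 was its most abundant gene, at 3.26% of its values, and its pair differed most (chi-square per degree of freedom 36.4, against 2.33 to 9.77 in the other groups). Counts of called members at KCl 6 h are also given without this library.

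Read counts differ with gene length, so levels were compared between members per kb of exon. Slc25a4, the main adenine nucleotide carrier of excitable tissue, was the most abundant in controls (normalised reads per kb, 2186 ± 110.3, SD, n = 6). Slc25a5, its widely expressed relative, followed at 1124 ± 95.6 and the phosphate carrier Slc25a3 at 527 ± 12.3. These first 3 were separated by far more than their SDs, which measure the spread between libraries and not the lengths used. The lengths are all annotated exon bases, 2353 for Slc25a4, 1646 for Slc25a5 and 5550 for Slc25a3. Before division by length Slc25a3 (2814 to 3010 in controls) exceeded Slc25a5 (1695 to 2134), so their order rests on the lengths. Slc25a44, Slc25a1, Slc25a51 and Slc25a11 lay together, from 369 ± 23.1 down to 351 ± 14.9, without differing beyond their spread. At the low end were Slc25a45 (7.11 ± 0.74), Slc25a5-ps (5.49 ± 1.23) and Slc25a48 (2.19 ± 0.46). Summed over the 41 members, the normalised read count was 27497 to 29270.1 in the 6 controls and 30373 to 33416 in the 12 stimulated libraries, so that these ranges did not overlap. Such a sum weighs the most abundant members most. Of these, Slc25a4 and Slc25a3 were above all controls in every stimulated library, while at KCl 1 h 17 of the 41 members were called lower. As a share of all values in a library the members held 0.230 to 0.243% in controls and 0.233 to 0.266% in stimulated libraries, and these ranges overlapped, both BDNF 1 h libraries and KCl 1 h B lying within the control range.

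Against controls, more members were called lower with KCl than with BDNF at each time. The same held for all genes (28.2%, 33.1% and 28.2% with KCl against 19.0%, 21.1% and 19.5% with BDNF at 1, 6 and 10 h). At 1 h of KCl more members fell than rose. A member was called when the Benjamini-Hochberg adjusted p over all tested genes was below 0.1 (limma), and the share of all 16209 genes called in the same direction is given beside each count. After 1 h of KCl 9 members rose and 17 fell (26.5% and 28.2% of all genes), with a median log2 fold change over members of -0.16, against 0.00 over all genes. In the same comparison Olig1 and Olig2, of the 5 oligodendrocyte-lineage markers, fell (summed markers 4280 to 4844, against 5757 to 6204 in controls), and their part in these counts was not tested. After 1 h of BDNF 9 rose and 9 fell (21.3% and 19.0%), a balance that edgeR on the recovered reads put at 7 and 13. After 6 h of BDNF 14 rose and 6 fell (22.1% and 21.1%), and after 10 h 17 rose and 3 fell (21.1% and 19.5%; median 0.15, against -0.01 over all genes). For KCl 13 rose and 12 fell at 6 h (33.4% and 33.1%) and 12 rose and 11 fell at 10 h (29.0% and 28.2%), shares close to those of all genes, and without KCl 6 h B 11 rose and 14 fell at 6 h. Leaving out 1 library lowered the calls from 18 to 9 (without BDNF 1 h A) or 10 (without B) at BDNF 1 h, from 20 to 13 at BDNF 10 h (without A) and from 23 to 14 at KCl 10 h (without A). At least 1 of the 6 comparisons called 39 members, as it did 93.1% of all genes, and Slc25a18, the astrocytic glutamate carrier, and Slc25a26, the S-adenosylmethionine carrier, were called in none of them. All comparisons share the same controls. In these mixed cultures fewer cells of a type and less RNA per cell cannot be told apart.

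**Figure D1:**
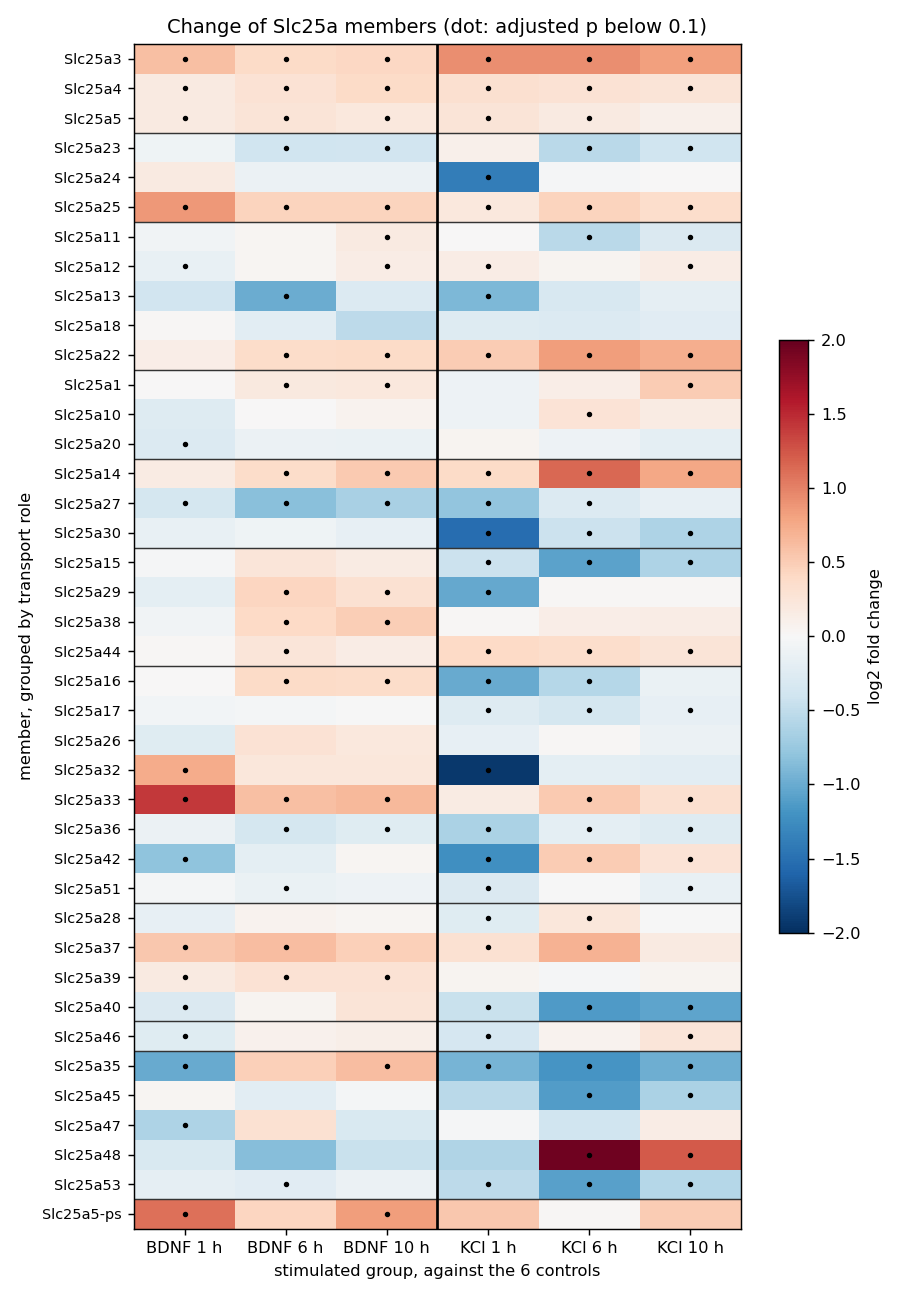
Log2 fold change (colour) of 40 members (rows, grouped by transport role) at 3 times of BDNF and of KCl (columns) against the 6 controls; a dot marks an adjusted p below 0.1 and colours saturate at 2. Slc25a3, Slc25a4 and Slc25a25 were higher in all 6 columns, while the darkest blue fields lie at KCl 1 h (Slc25a32, Slc25a30, Slc25a24 and Slc25a42).

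The carriers that supply ATP synthase with phosphate and ADP rose with both stimuli. Slc25a3, the phosphate carrier, lay at 2814 to 3010.0 (median 2933) normalised reads in the 6 controls, at 4529.9 and 4316 (1 h), 3792 and 3836 (6 h) and 3818 and 3944 (10 h) after BDNF, and at 5813 and 5337 (1 h), 5167 and 6067 (6 h) and 5139.7 and 5239.7 (10 h) after KCl. All 12 stimulated libraries were above all controls, and the KCl libraries were above the BDNF libraries of every time. Its log2 fold change (± SE) was 0.60 ± 0.06, adjusted p = 5.97e-08 at BDNF 1 h and 0.94 ± 0.06, adjusted p = 2.2e-11 at KCl 6 h, and KCl exceeded BDNF at each time (BDNF against KCl -0.33, -0.55 and -0.42 at 1, 6 and 10 h, the largest of these with adjusted p = 1.84e-06).

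Slc25a4 lay at 4904 to 5612 (median 5091) in controls, with 5819 and 5808 (1 h), 6220.1 and 6324 (6 h) and 6329.5 and 7058 (10 h) for BDNF and 6499.9 and 6384 (1 h), 6382 and 6118 (6 h) and 6269 and 5976 (10 h) for KCl. No stimulated library overlapped the controls, but the changes were small, from 0.18 at BDNF 1 h to 0.38 ± 0.06, adjusted p = 3.7e-05 at BDNF 10 h. The call at BDNF 1 h was lost without library A (0.18, adjusted p = 0.143) or B (0.18, adjusted p = 0.12). Slc25a5 lay at 1695 to 2134 (median 1834) in controls, 2083 and 2093 (1 h), 2167 and 2237 (6 h) and 2266 and 2009 (10 h) for BDNF and 2225 and 2194 (1 h), 1916 and 2282 (6 h) and 1983 and 1975 (10 h) for KCl. Both libraries exceeded all controls at BDNF 6 h and KCl 1 h, and the other 4 groups overlapped the controls, of which control 10 h A was the highest. Its largest change was 0.26 ± 0.08, adjusted p = 0.00834 at KCl 1 h. Its other calls were lost when 1 library was left out, giving 0.05, adjusted p = 0.641 without KCl 6 h B, 0.12, adjusted p = 0.424 without BDNF 10 h A, 0.23, adjusted p = 0.132 without BDNF 6 h B and 0.18, adjusted p = 0.277 without BDNF 1 h A, where leaving out BDNF 1 h B or any of 3 controls also ended the call.

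The 3 calcium-regulated ATP-Mg/phosphate carriers, which set the adenine nucleotide content of the matrix, responded in 3 different ways. Slc25a25 lay at 561 to 655 (median 616) normalised reads in controls, rose to 1086 and 1126 at BDNF 1 h and then stood at 834 and 826 (6 h) and 833 and 813 (10 h). With KCl it was at 741 and 663 (1 h), 835 and 822 (6 h) and 750.5 and 791 (10 h), so that the 2 libraries of BDNF 1 h were the highest of all and no stimulated group overlapped the controls. The change was 0.86 ± 0.07, adjusted p = 1.81e-09 at BDNF 1 h and 0.45 ± 0.07, adjusted p = 8.97e-06 at KCl 6 h, and BDNF exceeded KCl at 1 h by 0.66 ± 0.08, adjusted p = 2.16e-06. At KCl 1 h the rise of 0.21 was not called without library A (0.13, adjusted p = 0.27).

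Slc25a24 was at 42.0 to 76.7 (median 50.4) in controls and fell to 16.1 and 23.5 at KCl 1 h (-1.39 ± 0.21, adjusted p = 9.74e-06), below every other library. It was back at 51.1 and 52.1 (6 h) and 53.8 and 52.3 (10 h) later in KCl, within the control range. Under BDNF it stood at 62.3 and 57.2 (1 h), 50.4 and 46.7 (6 h) and 41.8 and 55.2 (10 h), with no call and only BDNF 10 h A just outside the control range. Slc25a23, the most abundant of the 3 per kb, was at 2276 to 2473 (median 2378) in controls and did not pass the test at 1 h, at 2234 and 2225 for BDNF, just below the controls, and 2535 and 2551 for KCl, just above them. It fell later, to 1896 and 1717 (6 h) and 2050.3 and 1618 (10 h) with BDNF and 1768 and 1498 (6 h) and 1899 and 1694 (10 h) with KCl, all below the controls. The largest fall was -0.54 ± 0.08, adjusted p = 4.07e-06 at KCl 6 h, and the one at BDNF 10 h was lost without library B (-0.21, adjusted p = 0.122).

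**Figure D2:**
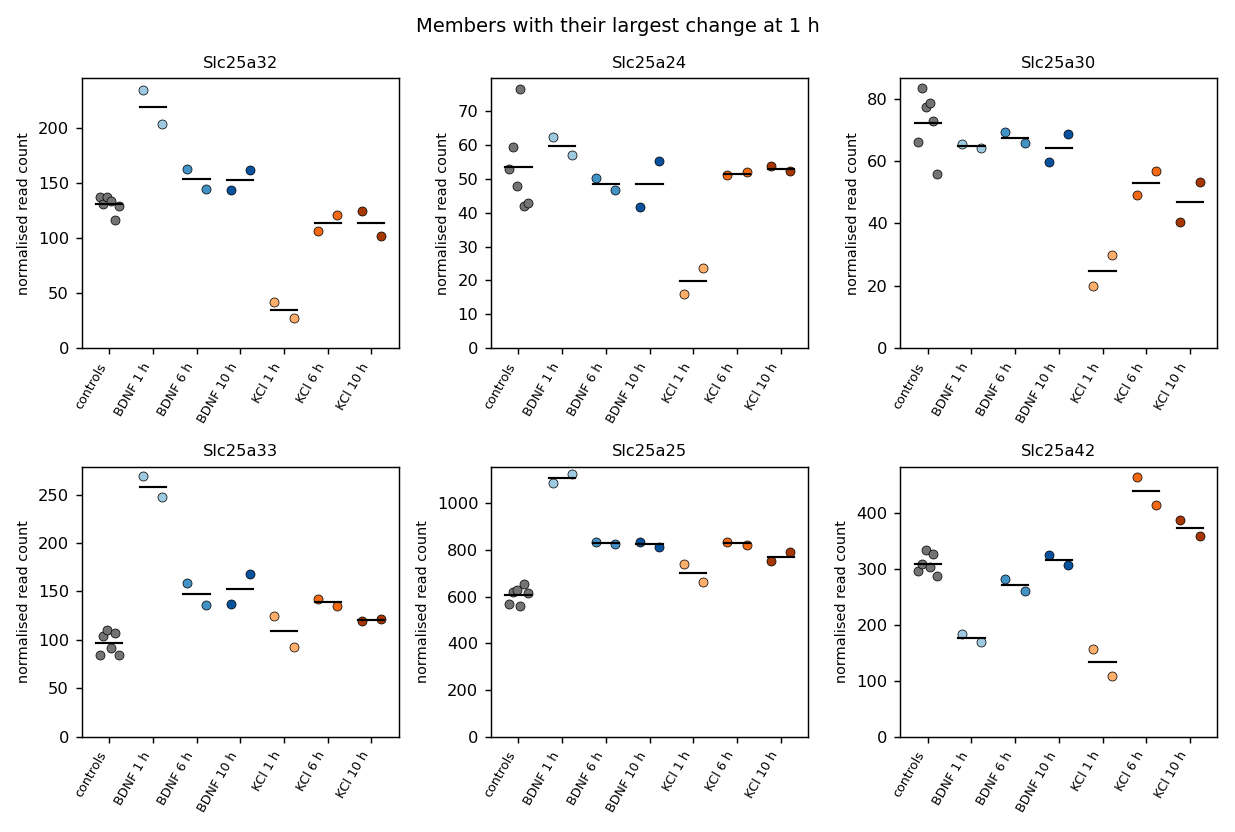
Normalised read count (vertical axes, starting at 0) of 6 members in each RNA library; points are libraries (6 controls, 2 per stimulated group) and bars are group means. Slc25a32, Slc25a24 and Slc25a30 drop at KCl 1 h and not at BDNF 1 h, Slc25a33 and Slc25a25 peak at BDNF 1 h, and Slc25a42 is low at 1 h of both stimuli and above the controls at 6 and 10 h of KCl.

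Chromatin accessibility was measured at 59 ATAC-seq peaks that overlap a member gene or the 1000 bp before it, 46 of them at promoters, 10 in introns and 3 in exons, for 39 members. Peaks called against controls (edgeR, adjusted p below 0.1) numbered 10 at BDNF 1 h (17.3% of all 56383 peaks), 5 at BDNF 6 h (10.6%), 5 at BDNF 10 h (9.36%), 4 at KCl 1 h (8.34%), 5 at KCl 6 h (7.49%) and 2 at KCl 10 h (7.87%). With the LOESS offsets, gained and closing peaks numbered, for BDNF, 6 and 4 after 1 h (12.5% and 4.78% of all peaks), 4 and 1 after 6 h (8.88% and 1.75%) and 4 and 1 after 10 h (7.46% and 1.9%). For KCl they numbered 4 and 0 after 1 h (5.29% and 3.05%), 4 and 1 after 6 h (5.44% and 2.06%) and 1 and 1 after 10 h (5.91% and 1.96%). In the same order they numbered, with DESeq2 size factors, 5 and 5, 4 and 2, 3 and 8, 3 and 3, 2 and 4, and 2 and 12, and with TMM 5 and 4, 4 and 1, 3 and 4, 3 and 3, 2 and 3, and 3 and 7, so that the balance of gained and closing peaks depended on the scaling. Without 1 library the calls at BDNF 1 h numbered 5 (BDNF 1 h A left out), at BDNF 6 h 2 (A) or 3 (B), at BDNF 10 h 1 (A), at KCl 1 h 1 (A) or 0 (B), at KCl 6 h 2 (A) or 3 (B), and at KCl 10 h 1 (B) or 4 (control 10 h A). The peak in the intron of Slc25a24, 33030 bp past the nearest annotated start, held 1.97 to 13.3 (median 5.68) LOESS-adjusted reads in controls and 34.5 and 44.2 (1 h), 40.3 and 44.0 (6 h) and 28.5 and 26.1 (10 h) with BDNF. With KCl it held 9.49 and 9.05 (1 h), 16.6 and 10.1 (6 h) and 16.3 and 15.3 (10 h). All BDNF libraries lay above all controls and all KCl libraries, no KCl group was called, and the change was 2.52 ± 0.39, adjusted p = 8.17e-08 at BDNF 1 h and 2.62 ± 0.39, adjusted p = 3.58e-08 at BDNF 6 h. The gain at BDNF 10 h (1.98) was not called against the 2 controls of that time alone (1.10, adjusted p = 0.312). The RNA of Slc25a24 was not called with BDNF at any time.

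In an exon of a retained-intron transcript of Slc25a25, 2263 bp past the nearest annotated start, a peak rose from control values of 24.2 to 59.8 (median 38.1) adjusted reads to 71.7 and 94.0 at BDNF 1 h (1.09 ± 0.23, adjusted p = 0.000146), above all controls. It held 88.4 and 50.6 at BDNF 6 h, overlapping the controls, and 63.7 and 68.4 at KCl 1 h, above them, and these calls were lost without BDNF 6 h A (0.38, adjusted p = 0.758) or without KCl 1 h A (0.81, adjusted p = 0.17), KCl 1 h B or control 6 h A. Slc25a25 RNA was higher in these 3 groups and in the other 3. A promoter peak of Slc25a25, starting at chr2:32451076, was called closing at BDNF 6 h (-0.27). It held 309 and 294 adjusted reads there, against 316 to 407 in controls. This call was lost without BDNF 6 h A (-0.3) or B (-0.23), among other alternatives. A peak in an intron of Slc25a5-ps was called gained in all 6 comparisons, from control values of 1.08 to 10.8 (median 2.00) to 25.3 and 19.0 at BDNF 1 h (2.68 ± 0.51, adjusted p = 1.15e-05) and 18.5 and 22.6 at KCl 10 h (2.58 ± 0.53, adjusted p = 0.000301). Fhit, on the opposite strand, overlaps 4.85% of the exon bases of this pseudogene, and peaks were matched to members by position alone. The KCl 6 h libraries of the Slc25a5-ps peak were far apart, at 24.7 and 5.13, and the call there was lost without KCl 6 h A (0.57). The lower value came from KCl 6 h B, the shallowest ATAC library, with 1.24 M reads in peaks. The calls at BDNF 10 h and KCl 1 h were lost without either library (for example 1.71, adjusted p = 0.271 without BDNF 10 h A and 1.60, adjusted p = 0.311 without KCl 1 h B). The other large changes were closing peaks in an intron of Slc25a12 and an exon of Slc25a48 and a gain at the promoter of Slc25a45, described with those genes.

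The sequences of 4 of these peaks are shown because they hold 3 of the gains described and, for comparison, the closing peak of Slc25a12. Each is the 200 bp around the middle of the peak (GRCm38, plus strand), read from the reference genome, with every match to TGANTCA, the letters bound by AP-1 (the family of Fos and Jun), in capitals on either strand.
Slc25a24 intron, chr3:109156093-109156292: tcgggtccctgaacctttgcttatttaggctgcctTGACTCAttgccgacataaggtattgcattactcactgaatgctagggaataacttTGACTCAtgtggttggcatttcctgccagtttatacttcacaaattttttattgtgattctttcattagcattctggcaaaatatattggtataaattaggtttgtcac
Slc25a5-ps intron, chr14:11170658-11170857: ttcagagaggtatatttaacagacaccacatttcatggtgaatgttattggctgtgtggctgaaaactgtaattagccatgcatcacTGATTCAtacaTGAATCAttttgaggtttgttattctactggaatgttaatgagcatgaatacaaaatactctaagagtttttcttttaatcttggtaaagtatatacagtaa
Slc25a25 exon, chr2:32428390-32428589: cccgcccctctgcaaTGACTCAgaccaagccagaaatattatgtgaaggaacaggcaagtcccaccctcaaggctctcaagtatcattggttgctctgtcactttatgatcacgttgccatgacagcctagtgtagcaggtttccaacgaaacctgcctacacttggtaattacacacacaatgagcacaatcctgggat
Slc25a12 intron, chr2:71290160-71290359: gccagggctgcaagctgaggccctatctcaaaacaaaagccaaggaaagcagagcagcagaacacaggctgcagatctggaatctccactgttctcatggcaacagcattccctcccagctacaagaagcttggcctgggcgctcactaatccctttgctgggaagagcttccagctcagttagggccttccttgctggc
The Slc25a24 and Slc25a5-ps windows held 2 matches each, the Slc25a25 window held 1 and the Slc25a12 window held none, while the promoter peak of Slc25a45, in a 5′ UTR and not printed, held 2. Matches were found in 13.0% of such windows over all 56383 peaks, in 6 of the 59 member peaks, in 4 of the 10 member peaks gained in at least 1 comparison and in none of the 8 closing ones. The shares over all gained and all closing peaks were not counted, so this split cannot be set apart from that of peaks in general. For gained peaks as a whole the paper reports the bZIP motif, that of Fos and Jun, as the most enriched.

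Slc25a25 was also 1 of 2 members, with Slc25a36, whose RefSeq promoter (250 bp before to 50 bp after a gene start; found for 31 of 41 members, 40 windows) held TGACGTCA, the cAMP response element bound by CREB, on either strand. It is shown as the part before the start of the short transcript, on the minus strand of chr2:32424067-32424316 (RefSeq, GRCm38.p6), with the match in capitals.
Slc25a25 promoter: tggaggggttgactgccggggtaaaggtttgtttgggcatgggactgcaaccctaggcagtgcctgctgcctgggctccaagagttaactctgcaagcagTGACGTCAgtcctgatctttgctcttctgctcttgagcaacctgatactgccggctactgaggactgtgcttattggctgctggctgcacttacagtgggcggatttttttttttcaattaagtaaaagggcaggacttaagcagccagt
The match begins at base 101 of this stretch. The other Slc25a25 promoter windows held no TGACGTCA. The ATAC-seq peak at this start held 35.0 and 33.5 adjusted reads at BDNF 1 h, overlapping the controls (17.4 to 34.7). Over all 32851 RefSeq promoter windows 1.79% held TGACGTCA and 7.81% held TGANTCA (2 of 40 for members in each case). Among peak windows, TGACGTCA was in 3 of 59 member peaks (0.708% of all peaks), in Slc25a25, Slc25a39 and Slc25a26. Slc25a26 was called in no comparison with controls. Other letters were searched too: TGACG was in 13 of 40 member promoter windows (20.8% of all), GCGTGGG in 9 (5.04%) and CACGTG in 7 (7.15%). Windows of the same gene can overlap, as those of Slc25a14 and of Slc25a23 that hold GCGTGGG do. These are therefore counts of windows and not of separate promoters or genes. These matches are descriptions of letters and were not tested for binding.

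**Figure D3:**
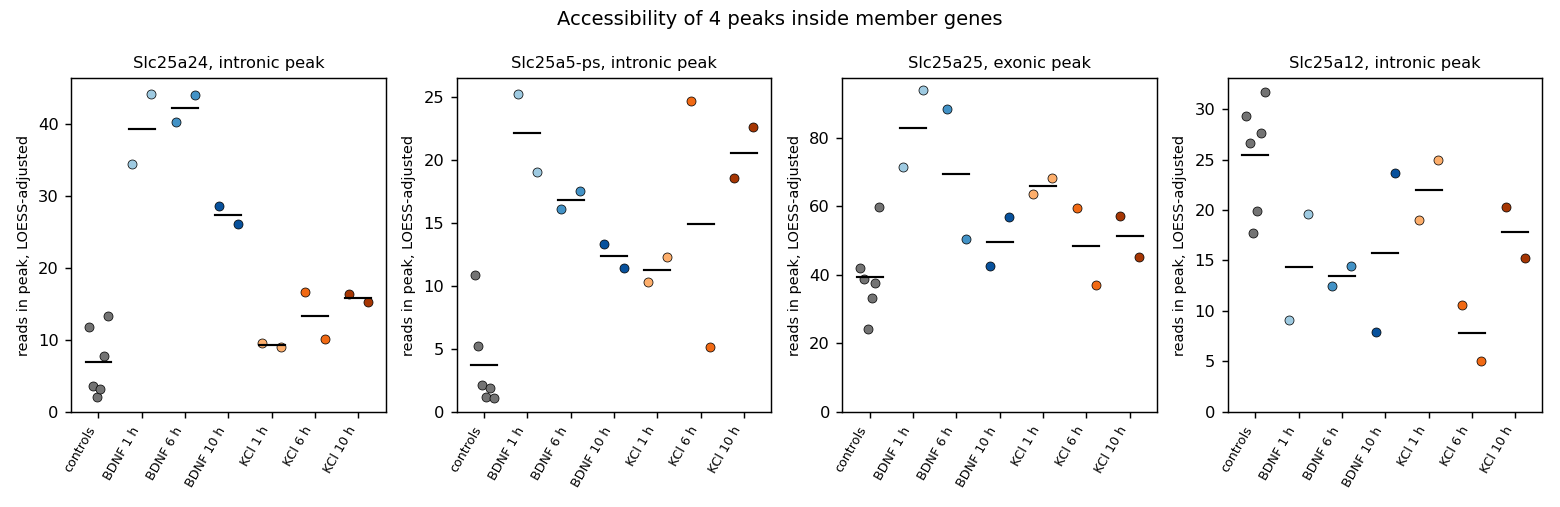
LOESS-adjusted ATAC-seq reads (vertical axes, starting at 0) in 4 peaks inside member genes; points are libraries and bars group means. The Slc25a24 peak is open in all 6 BDNF libraries and no KCl library reaches them, the Slc25a5-ps and Slc25a25 peaks are highest at BDNF 1 h on average, and the Slc25a12 peak is lowest at KCl 6 h.

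Among the carriers of aspartate, glutamate and oxoglutarate, Slc25a22 was called in 5 of 6 comparisons, always higher. Slc25a22, a mitochondrial glutamate carrier, was at 1226 to 1523 (median 1329) in controls, 1531 and 1427 (1 h), 1750.3 and 1726 (6 h) and 1839 and 1683 (10 h) with BDNF and 2089 and 1746 (1 h), 2495 and 2342 (6 h) and 2359 and 2103 (10 h) with KCl. It was above all controls in 5 of 6 groups and overlapped them at BDNF 1 h, where it was not called. The change was 0.84 ± 0.08, adjusted p = 1.58e-08 at KCl 6 h and 0.38 ± 0.08, adjusted p = 0.0012 at BDNF 10 h, and KCl exceeded BDNF by most at 6 h (-0.48 ± 0.10, adjusted p = 0.000454).

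Slc25a12, the neuronal aspartate/glutamate carrier, moved little, from control values of 907 to 989.7 (median 941) to 832 and 870.1 (1 h), 1021 and 917 (6 h) and 1069 and 1028 (10 h) with BDNF and 1077 and 1019 (1 h), 998 and 955 (6 h) and 1057 and 1031 (10 h) with KCl. Its 4 calls, of 0.15 in size, each depended on 1 library, for example 0.11, adjusted p = 0.3 at KCl 1 h without library A. The intronic Slc25a12 peak shown above fell from control values of 17.8 to 31.7 (median 27.2) adjusted reads to 10.5 and 5.05 (the latter in the shallowest ATAC library, KCl 6 h B) at KCl 6 h (-1.50 ± 0.50, adjusted p = 0.0554), a call lost without either library (without A, -2.29; without B, -1.25). Slc25a13, the form of this carrier best known from liver, was -0.996 ± 0.30, adjusted p = 0.0124 at BDNF 6 h and -0.89 at KCl 1 h, calls lost without the B library (-0.79, adjusted p = 0.174 without BDNF 6 h B; -0.79, adjusted p = 0.13 without KCl 1 h B). Slc25a11, the oxoglutarate/malate carrier, fell with KCl at 6 and 10 h (-0.54 ± 0.08, adjusted p = 3.62e-06 and -0.29) and was 0.18 at BDNF 10 h, with BDNF over KCl by 0.58 at 6 h. The calls at 10 h were lost with 1 library left out (-0.17, adjusted p = 0.18 without KCl 10 h B; 0.19, adjusted p = 0.228 without BDNF 10 h A, and likewise without B or any of 3 controls). Slc25a18 was not called (-0.52 at BDNF 10 h). The summed astrocyte markers stood at 10222 to 10610 there and at 10558 to 15187 in controls, and their part in these values was not tested.

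The carriers that export citrate and dicarboxylates and import acylcarnitine changed little. Slc25a1, which exports citrate for lipid synthesis, rose by 0.20 and 0.20 at BDNF 6 and 10 h and by 0.50 ± 0.08, adjusted p = 2.98e-05 at KCl 10 h, the BDNF calls being lost with 1 library left out (0.09, adjusted p = 0.598 without BDNF 6 h A; 0.21, adjusted p = 0.188 without BDNF 10 h A). Slc25a10, the dicarboxylate carrier, was called at KCl 6 h alone (0.28) and Slc25a20, the carnitine/acylcarnitine carrier, at BDNF 1 h alone (-0.28). Neither call held without 1 library (0.24, adjusted p = 0.232 without KCl 6 h A and 0.32, adjusted p = 0.119 without KCl 6 h B; -0.30, adjusted p = 0.263 without BDNF 1 h A).

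The 3 members related to the uncoupling proteins, Slc25a14, Slc25a27 and Slc25a30, went in different directions. Slc25a14 lay at 181 to 239 (median 199.7) in controls and reached 411 and 501 at KCl 6 h, with 256 and 275 and 339 and 357 at 1 and 10 h. BDNF libraries held 236 and 221 (1 h), 263 and 265 (6 h) and 272 and 313 (10 h), so that BDNF 1 h overlapped the controls and the other 5 groups lay above them. The change was 1.15 ± 0.11, adjusted p = 7.53e-09 at KCl 6 h and 0.52 ± 0.11, adjusted p = 0.000873 at BDNF 10 h. Its promoter peak gained accessibility with BDNF, from control values of 124 to 155 (median 141) adjusted reads to 228 and 213 at 1 h (0.65 ± 0.13, adjusted p = 3.11e-05), and was not called with KCl (0.33 at 1 h and -0.05 at 6 h, the time of the largest RNA change).

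Slc25a30 fell at KCl 1 h to 19.8 and 29.9, from control values of 55.9 to 83.4 (median 75.1) (-1.52 ± 0.18, adjusted p = 4.25e-07), and was at 49.2 and 56.7 (6 h) and 40.3 and 53.4 (10 h) later, overlapping the controls at 6 h and below them at 10 h. The later calls were lost without KCl 6 h A (-0.34, adjusted p = 0.245) and without KCl 10 h A (-0.42, adjusted p = 0.16). In the BDNF groups it was at 65.4 and 64.1 (1 h), 69.4 and 65.9 (6 h) and 59.9 and 68.9 (10 h), inside the control range, with no call. Slc25a27 fell in 5 of the 6 comparisons, most at BDNF 6 h (-0.84 ± 0.09, adjusted p = 1.3e-07), and stood at -0.17 at KCl 10 h.

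Of the amino acid carriers, Slc25a29, which carries basic amino acids, lay at 199 to 253 (median 238) in controls and fell to 116 and 111 at KCl 1 h (-1.03 ± 0.10, adjusted p = 3.7e-08), then returned to 253 and 219.9 (6 h) and 252 and 222 (10 h), within the control range. After BDNF it stood at 202 and 201 (1 h), 299 and 327 (6 h) and 304 and 273 (10 h), above all controls at 6 and 10 h (0.43 ± 0.10, adjusted p = 0.00276 at 6 h). The call at BDNF 10 h was lost without library A (0.23, adjusted p = 0.252). Slc25a15, the ornithine carrier, fell with KCl, from control values of 171 to 210.3 (median 184) to 149 and 129 (1 h), 73.7 and 105 (6 h) and 147 and 101 (10 h), all below the controls (-1.08 ± 0.14, adjusted p = 1.17e-06 at 6 h). The calls at KCl 1 h and 10 h were lost without the B library of that time (-0.32, adjusted p = 0.189; -0.35, adjusted p = 0.113). With BDNF it was at 193 and 176 (1 h), 208 and 237 (6 h) and 211 and 209.6 (10 h), which overlapped the controls. Slc25a38, which carries glycine for heme synthesis, rose with BDNF at 6 and 10 h (0.39 and 0.49) and was not called with KCl. Its KCl libraries still stood above all controls (255 to 277) at 6 h (295 and 287) and 10 h (290 and 296). Slc25a44, which carries branched-chain amino acids, rose at all 3 times of KCl (0.39, 0.35 and 0.26), the last call being lost without KCl 10 h A (0.19). It was also called higher at 1 time of BDNF, and at BDNF 6 h it held 1539 and 1561, above all controls (1208 to 1433).

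The 9 carriers of cofactors and pyrimidine nucleotides included Slc25a32, the member with the largest difference between the stimuli at 1 h. At KCl 1 h 6 of them fell and none rose (28.2% of all genes fell and 26.5% rose), and at BDNF 1 h 2 rose and 2 fell (21.3% and 19.0% of all genes). Slc25a32, the folate and FAD carrier, lay at 116 to 137 (median 132) in controls, at 234 and 203 after 1 h of BDNF and at 42.0 and 26.7 after 1 h of KCl, above all controls for BDNF and below them for KCl. The changes were 0.74 ± 0.14, adjusted p = 0.000333 and -1.93 ± 0.14, adjusted p = 3.26e-10, and the direct difference, BDNF over KCl, was 2.67 ± 0.18, adjusted p = 1.03e-10. It was at 162 and 145 (6 h) and 144 and 161 (10 h) later in BDNF, above the controls but not called, and at 106 and 120.4 (6 h) and 125 and 101 (10 h) later in KCl, overlapping them.

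Slc25a33, a pyrimidine nucleotide carrier, lay at 84.1 to 109.6 (median 97.6) in controls, rose to 269 and 247 at BDNF 1 h (1.41 ± 0.14, adjusted p = 4.19e-08) and remained above the controls at 159 and 136 (6 h) and 137 and 168 (10 h). With KCl it was at 125 and 93.0 (1 h), 143 and 135 (6 h) and 119.8 and 122 (10 h), not called at 1 h, and BDNF exceeded KCl by 1.25 ± 0.17, adjusted p = 3.85e-06 at that time. The call at KCl 10 h was lost without library A (0.34, adjusted p = 0.155) or B (0.31, adjusted p = 0.198). On the opposite strand Gm13068 overlaps 14.9% of its exon bases, and the counting is not stated to use strand. Slc25a36, the other pyrimidine nucleotide carrier, fell in 5 of 6 comparisons, most at KCl 1 h (-0.63 ± 0.06, adjusted p = 4.8e-08), and the call at KCl 6 h was lost without 1 library (-0.11, adjusted p = 0.239 without KCl 6 h A).

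Slc25a42, a carrier of coenzyme A, was low at 1 h of both stimuli: BDNF libraries read 184 and 169, KCl libraries 157 and 109, against 286 to 333 (median 306) in controls. All 4 of these libraries lay below the controls. It then rose above the controls with KCl, to 464 and 413 (6 h) and 387 and 358 (10 h), and with BDNF it was at 281 and 259.8 (6 h) and 324 and 307 (10 h) and not called. The changes were -1.23 ± 0.11, adjusted p = 4.39e-09 at KCl 1 h and 0.50 ± 0.11, adjusted p = 0.000368 at KCl 6 h, and -0.80 at BDNF 1 h. The smaller rise at KCl 10 h was lost without library A (0.22, adjusted p = 0.25). Its promoter peak, which held 646 to 802 (median 722) adjusted reads in controls and 906 and 869 at BDNF 1 h, was called gained by 0.27 at the time its RNA fell, a call lost without BDNF 1 h A (0.24, adjusted p = 0.15) and under other scalings.

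Slc25a16, which is linked to coenzyme A transport, fell with KCl from control values of 296 to 364 (median 334) to 152 and 182 at 1 h (-1.01 ± 0.09, adjusted p = 8.81e-09) and 214 and 236 at 6 h and was at 296 and 316 at 10 h. With BDNF it was at 322 and 349 at 1 h and rose to 449 and 427 (6 h) and 426 and 434 (10 h), above the controls, so that at 6 h the stimuli differed by 0.96 ± 0.11, adjusted p = 4.29e-07. Slc25a17, a peroxisomal carrier of cofactors, fell at all 3 times of KCl (at most -0.36; -0.14, adjusted p = 0.293 without KCl 10 h A) and was not called with BDNF. Slc25a51, the NAD carrier, was at most -0.28 from the controls, at KCl 1 h.

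Among the iron and glutathione carriers, the 2 glutathione carriers of the inner membrane went apart. Slc25a40 fell with KCl, from control values of 159 to 231 (median 205) to 139.5 and 157 (1 h), 87.5 and 96.1 (6 h) and 109 and 86.0 (10 h), all below the controls (-1.13 ± 0.13, adjusted p = 2.07e-07 at 6 h and -1.05 at 10 h). With BDNF it was at 154 and 176 (1 h), 228 and 190.3 (6 h) and 243 and 241 (10 h), just above the controls at 10 h but not called, and the direct difference, BDNF over KCl, was 1.31 ± 0.16, adjusted p = 1.42e-06 at 10 h. The small falls at 1 h were lost without BDNF 1 h A (-0.19, adjusted p = 0.525), among other libraries of that comparison, and without KCl 1 h A (-0.36, adjusted p = 0.12). Slc25a39 rose at all 3 times of BDNF (0.19, 0.28 and 0.28; 0.17, adjusted p = 0.263 without BDNF 1 h A) and was not called with KCl. Of the 2 mitoferrins, which import iron, Slc25a37 rose in 5 of 6 comparisons (largest 0.69 ± 0.10, adjusted p = 4.63e-06 at KCl 6 h; 0.26, adjusted p = 0.135 without KCl 1 h B). Slc25a28 was -0.24 at KCl 1 h and 0.22 at KCl 6 h, and neither call held without 1 library (-0.19, adjusted p = 0.294 without KCl 1 h A; 0.12, adjusted p = 0.439 without KCl 6 h A). Slc25a46, which sits in the outer membrane and acts in mitochondrial dynamics, fell at 1 h of BDNF (-0.25; -0.17, adjusted p = 0.182 without BDNF 1 h B) and KCl (-0.34) and rose at KCl 10 h (0.24).

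**Figure D4:**
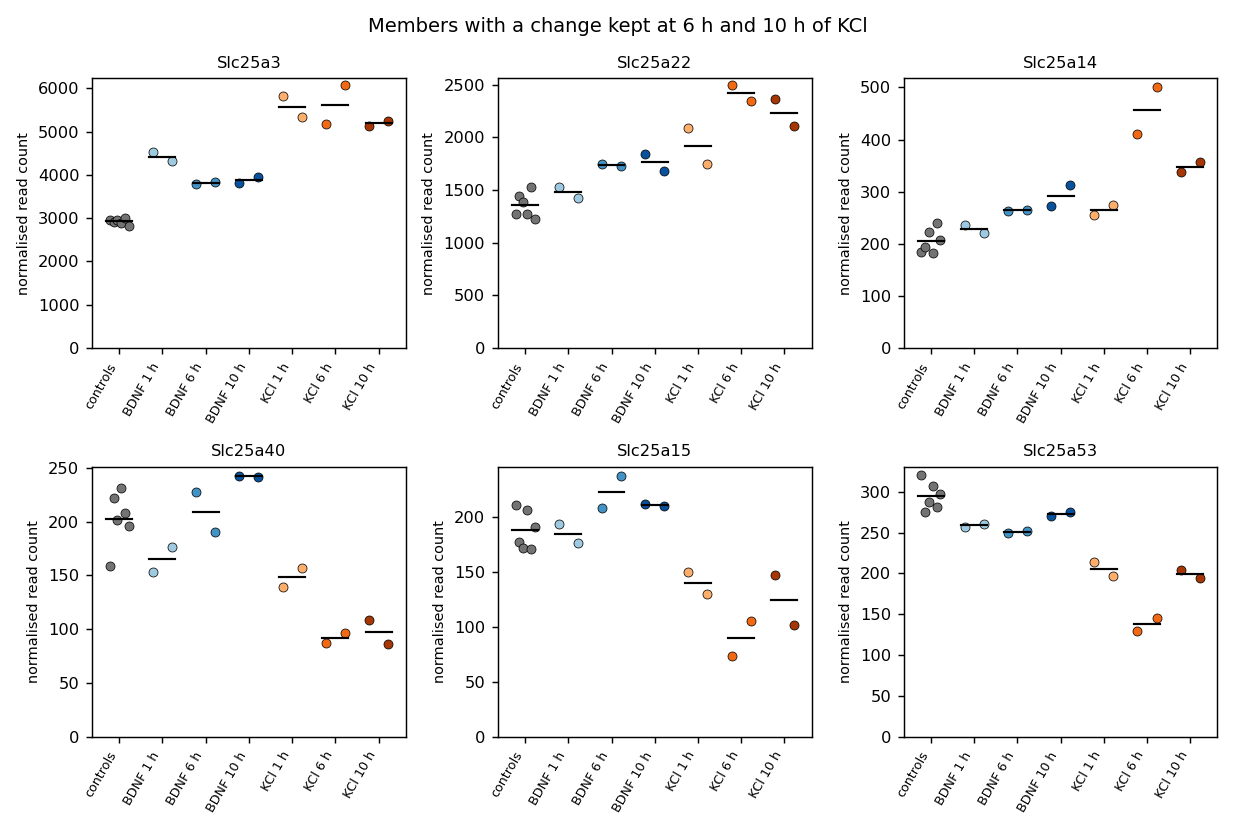
Normalised read count (vertical axes, starting at 0) of 6 members in each RNA library, with points for libraries and bars for group means. Slc25a3, Slc25a22 and Slc25a14 are above the controls in all KCl libraries and Slc25a40, Slc25a15 and Slc25a53 below them, with Slc25a40 and Slc25a15 of the BDNF libraries within or close to the control range.

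Of the 5 carriers whose substrates are less settled, 3 fell and 1 rose at KCl 6 h (33.1% and 33.4% of all genes). Slc25a53 fell from control values of 275 to 321 (median 293) to 214 and 197 (1 h), 129.8 and 146 (6 h) and 204 and 194 (10 h) with KCl (-1.09 ± 0.09, adjusted p = 7.69e-10 at 6 h) and was at 257 and 261 (1 h), 249.5 and 253 (6 h) and 270.1 and 275 (10 h) with BDNF. Its small fall at BDNF 6 h was lost without library A (-0.22, adjusted p = 0.206) or B (-0.24, adjusted p = 0.171). Slc25a48 lay at 5.58 to 9.33 (median 7.44) in controls and at 6.08 and 5.34 (1 h), 0.90 and 10.1 (6 h) and 6.78 and 3.78 (10 h) with BDNF, overlapping ranges of very few reads, but reached 25.6 and 37.0 at KCl 6 h (1.94 ± 0.48, adjusted p = 0.00143) and 17.1 and 19.6 at 10 h, after 2.47 and 7.48 at 1 h. Leaving out KCl 10 h A or B ended the call at 10 h (1.32, adjusted p = 0.118 and 1.13, adjusted p = 0.189). A peak in an exon of Slc25a48 closed at BDNF 1 h, from control values of 12.3 to 20.6 (median 17.6) to 1.70 and 10.6 adjusted reads (-1.42 ± 0.51, adjusted p = 0.0457), which rested on library A (-0.71, adjusted p = 0.625 without it).

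Slc25a35 lay at 18.7 to 40.9 (median 27.4) in controls and was low at BDNF 1 h (10.6 and 18.3) and at every time of KCl (18.5 and 11.8 (1 h), 11.8 and 12.7 (6 h) and 13.4 and 15.2 (10 h)), while BDNF later gave 42.3 and 39.3 (6 h) and 55.4 and 37.1 (10 h). Controls and BDNF overlapped at 6 and 10 h, and the other 4 groups lay below all controls. The changes were -1.004 ± 0.28, adjusted p = 0.00841 at BDNF 1 h and -1.18 ± 0.28, adjusted p = 0.00103 at KCl 6 h, the first being lost without BDNF 1 h A (-0.64, adjusted p = 0.252). The call at KCl 1 h was lost without library B (-0.62, adjusted p = 0.188), and the rise at BDNF 10 h (0.62) without BDNF 10 h A (0.34, adjusted p = 0.561), BDNF 10 h B or any of 4 controls. Rangrf, on the opposite strand, overlaps 31.3% of its exon bases. Slc25a45 fell at KCl 6 h from control values of 17.6 to 23.3 (median 19.1) to 8.85 and 8.10 (-1.12 ± 0.29, adjusted p = 0.00239) and was at 16.1 and 10.7 and 9.78 and 15.2 at 1 and 10 h, the latter call being lost without KCl 10 h A (-0.34, adjusted p = 0.509), control 10 h A or control 1 h A. With BDNF it was at 24.3 and 16.8 (1 h), 23.4 and 11.9 (6 h) and 24.9 and 14.4 (10 h) and not called, although its promoter peak gained from control values of 8.44 to 24.7 (median 19.6) to 49.5 and 43.2 adjusted reads at BDNF 1 h (1.36 ± 0.33, adjusted p = 0.00113). Slc25a47 was called at BDNF 1 h alone (-0.62; -0.51, adjusted p = 0.359 without BDNF 1 h A).

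Slc25a5-ps, whose reads may be shared with Slc25a5, was at 8.30 to 15.1 (median 11.8) in controls, 28.9 and 22.1 (1 h), 18.9 and 12.8 (6 h) and 22.6 and 19.7 (10 h) with BDNF and 22.2 and 12.8 (1 h), 12.8 and 10.4 (6 h) and 20.8 and 13.1 (10 h) with KCl. It was above all controls at BDNF 1 h (1.09 ± 0.30, adjusted p = 0.00631) and 10 h, calls that were lost without BDNF 1 h A (0.91, adjusted p = 0.125) and without BDNF 10 h A (0.75, adjusted p = 0.199) or B (0.94, adjusted p = 0.118). At these counts the values are uncertain.

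Tested directly, BDNF exceeded KCl for 13 members at 1 h (24.6% of all genes), 13 at 6 h (29.6%) and 11 at 10 h (23.1%), and KCl exceeded BDNF for 6 (18.2%), 7 (27.8%) and 5 (21.8%). Without KCl 6 h B the counts at 6 h were 9 and 7, and the calls of Slc25a29, Slc25a38, Slc25a45, Slc25a47 and Slc25a51 were lost (for example 0.85, adjusted p = 0.13 for Slc25a45 and 0.31, adjusted p = 0.106 for Slc25a29). At 1 h the largest differences were those of Slc25a32, Slc25a24 (1.57 ± 0.25, adjusted p = 4.22e-05), Slc25a30 (1.38 ± 0.22, adjusted p = 3.92e-05) and Slc25a33, all with BDNF higher. At 6 and 10 h they were Slc25a48, higher with KCl (-2.79 ± 0.59, adjusted p = 0.000439 at 6 h), and Slc25a35, higher with BDNF (1.66 ± 0.35, adjusted p = 0.00039 at 6 h), followed by Slc25a15 and Slc25a40. The calls of Slc25a32 at 6 and 10 h (0.43 and 0.43) and of Slc25a48 at 10 h (-1.66) were lost without 1 library, for example 0.34, adjusted p = 0.187 for Slc25a32 at 6 h without KCl 6 h A and -1.31, adjusted p = 0.196 for Slc25a48 without BDNF 10 h B.

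Within BDNF, 18 members differed between 1 and 6 h (33.6% of all genes), 11 higher and 7 lower at 6 h (15.8% and 17.7%), and none between 6 and 10 h (0.216% of all genes; no member by limma at an unadjusted p under 0.05, nor by edgeR or DESeq2 at the adjusted threshold). Within KCl, 24 differed between 1 and 6 h (59.6%), 19 higher at 6 h and 5 lower (30.9% and 28.7%; 17 and 5 without KCl 6 h B), and 7 between 6 and 10 h (22.5%). Leaving out BDNF 1 h A lowered the 18 to 11, and leaving out KCl 10 h A lowered the 7 to 2. The largest steps from 1 to 6 h of KCl were those of Slc25a48 (2.55 ± 0.59, adjusted p = 0.000988), Slc25a42 (1.74 ± 0.13, adjusted p = 8.02e-10), Slc25a32 (1.72) and Slc25a24 (1.36). With the controls of each time, the effect of KCl at 6 h differed from that at 1 h for 20 members (interaction in limma; 42.4% of all genes) and the effect at 10 h for 11 (37.3%), and for BDNF these numbers were 9 (15.9%) and 10 (15.3%). Of the 17 members lower at KCl 1 h, 8 were lower at 10 h as well, 7 were no longer called and 2, Slc25a42 and Slc25a46, were higher. Controls of 6 and 10 h differed from those of 1 h for no gene by limma (0.0% in both), with 1 member and no member at an unadjusted p under 0.05, and for no gene by edgeR.

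Other genes of the mitochondrion were counted in lists that share function with the carriers. Of 16 genes of ATP synthase (its subunits and the inhibitory factor Atpif1), which uses the phosphate and ADP that Slc25a3 and Slc25a4 import, 13 rose and 1 fell at KCl 6 h (largest Atp5k, 0.91 ± 0.20, adjusted p = 0.00049, Atp5d and Atp5l) and 12 rose and none fell at BDNF 10 h, with list medians of 0.51 and 0.30, against 0.01 and -0.01 over all genes. Over all genes the shares that rose and fell were 33.4% and 33.1% (KCl 6 h), 29.0% and 28.2% (KCl 10 h), 22.1% and 21.1% (BDNF after 6 h), and 21.1% and 19.5% (BDNF after 10 h). Of 11 genes for the import of carrier proteins, 10 rose and none fell at both 6 and 10 h of BDNF (Timm8a1 0.68 ± 0.14, adjusted p = 0.000551 at 10 h; Timm9 0.64 ± 0.11, adjusted p = 0.000121 at 6 h), while at KCl 10 h 2 rose and 2 fell. Timm13 rose most at KCl 6 h (0.67 ± 0.09, adjusted p = 7.26e-07). Of 24 enzymes of the citric acid cycle and the malate-aspartate shuttle, 18 rose and 2 fell at BDNF 10 h, led by Got1, which makes aspartate from glutamate in the cytosol (0.78 ± 0.08, adjusted p = 2.8e-07), and 13 rose and 7 fell at KCl 6 h, where Glud1 fell (-0.67 ± 0.06, adjusted p = 8.87e-09). Suclg2 fell at KCl 10 h (-0.95 ± 0.14, adjusted p = 9.41e-06).

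Of 24 tested mitochondrial channels and carriers without an Slc25a symbol (Ucp2, Mtch1 and Mtch2 among them belong to the same protein family), 6 rose and 9 fell at KCl 6 h, among them Slc8b1, the mitochondrial sodium/calcium exchanger (1.46 ± 0.32, adjusted p = 0.000609), and Sfxn4 (-1.17 ± 0.19, adjusted p = 1.29e-05), and Sfxn5 fell at KCl 10 h (-0.96 ± 0.07, adjusted p = 1.06e-09). Ucp1 and Ucp3, of the same family, were below the minimum mean of 10 and not tested. Ucp1 averaged 1.62 normalised reads in controls and 52.3 at KCl 1 h, and Ucp3 0.43 and 4.53. Of 14 tested regulators of mitochondrial genes, 9 rose and 1 fell at BDNF 6 h. The largest changes were those of the stress-responsive factors Ddit3 at BDNF 1 h (1.81 ± 0.11, adjusted p = 1.63e-11) and Atf4 at KCl 1 h (1.58 ± 0.07, adjusted p = 8.97e-14) and of Tfb1m at KCl 6 h (-1.63 ± 0.21, adjusted p = 7.83e-07). Markers of dividing cells moved with the late groups, since 3 of 4 fell at BDNF 6 h, BDNF 10 h and KCl 6 h and 4 of 4 at KCl 10 h (sums 4252 to 4664, 4388 to 4583, 3345 to 3790 and 3295 to 3576, against 4630 to 7294 in controls), and of the 5 astrocyte markers 5, 3, 4 and 4 fell in those groups. At 1 h of either stimulus none of the 5 astrocyte markers and none of the 4 dividing-cell markers fell. Of the oligodendrocyte-lineage markers, Olig1 and Mbp rose and Pdgfra fell at KCl 6 h, and Olig1 rose at KCl 10 h (sums 6852 to 7191 and 6517 to 7137, both above the controls). Of the 4 markers of GABAergic neurons 3 rose in each BDNF group and at KCl 6 and 10 h, where 1 fell, and 2 rose at KCl 1 h. The part of these markers in the changes of the members was not tested.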

How the data were processed

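Poly(A) RNA was sequenced in 18 libraries and accessible chromatin (ATAC-seq) in 18, with 2 per group. The authors aligned RNA reads with TopHat2 to mm10 and GENCODE M16 and deposited read counts divided by DESeq2 size factors, a scaled signal per gene; strand use is not given in the sources used here. ATAC reads were aligned with Bowtie2, peaks were called with MACS2 per sample and merged with DiffBind, and the deposited ATAC table holds raw read counts per peak. Gene symbols were taken from a deposited table of the authors' own comparisons, whose fold changes and p-values were not used.

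The members and gene lists were chosen with earlier results of these data known. Genes with a mean of at least 10 (16209) were tested with limma 3.58.1 in R 4.3.3 on log2(value + 1), with trended, robust variances and the 6 controls as 1 level, so that fold changes are on that scale and understate those of low genes. Whole reads were recovered for 100% of values (tolerance 0.01), giving 8.51 to 36.7 M reads per library. edgeR on these reads called 6430 genes at BDNF 1 h and 10779 at KCl 6 h, and DESeq2 1.42.0 was the other count test. Peaks (56383 with a mean of at least 10; 1.24 to 6.24 M reads per library) were tested with edgeR 4.0.16 (quasi-likelihood, LOESS offsets). Calls needed a Benjamini-Hochberg adjusted p below 0.1. Positions came from GENCODE M21 (GRCm38).

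Every member could be named, and 1 is counted but not reported singly here. Values per library were given for members called with a log2 fold change of at least 1 in size and for 8 reference carriers (Slc25a3, Slc25a4, Slc25a5, Slc25a12, Slc25a22, Slc25a23, Slc25a24 and Slc25a25), together with the 5 called peaks of largest change and 3 genes per companion list. The peaks of Slc25a25, Slc25a14 and Slc25a42 were added after their values were seen. Letters A and B are those of the RNA columns and, for ATAC, the column order. Other thresholds, filters, pseudocounts, scalings, count tests, same-time controls, a replicate block and leaving out each library were tried. The scripts were tested on simulated data.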

Additional observations from a re-analysis of the deposited data

Results flagged for a closer look

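Of the 41 members 1 had a control library far from the other 5: Slc25a26 in control 1 h B, at 51.6 normalised reads, the lowest of the 6. By chance about 1 in 20 such groups holds a library this far out.

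The effect of a stimulus differed between times, tested as an interaction over 9 groups with the controls of each time (limma), for 9 members (BDNF, 6 h against 1 h; 15.9% of all genes), 10 (BDNF, 10 h against 1 h; 15.3%), 20 (KCl, 6 h against 1 h; 42.4%) and 11 (KCl, 10 h against 1 h; 37.3%). Differences of at least 1 on the log2 scale came from 2, 1, 4 and 5 of them. For BDNF, the effect at 6 h minus that at 1 h was 1.98 ± 0.48, adjusted p = 0.0114 for Slc25a35 and 1.52 ± 0.43, adjusted p = 0.0288 for Slc25a47, and the effect at 10 h minus that at 1 h was 1.58 ± 0.48, adjusted p = 0.0411 for Slc25a35.

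For KCl, the effect at 6 h minus that at 1 h was 1.68 ± 0.20, adjusted p = 5.32e-06 for the coenzyme A carrier Slc25a42, 1.13 ± 0.18, adjusted p = 9.63e-05 for the basic amino acid carrier Slc25a29, 1.58 ± 0.26, adjusted p = 0.00015 for the folate carrier Slc25a32 and 2.14 ± 0.87, adjusted p = 0.0642 for Slc25a48. At 10 h minus 1 h it was 1.52 ± 0.20, adjusted p = 1.66e-05 for Slc25a42, 1.59 ± 0.26, adjusted p = 0.000162 for Slc25a32, 1.27 ± 0.18, adjusted p = 3.35e-05 for Slc25a29, 1.04 ± 0.16, adjusted p = 9.51e-05 for Slc25a16 and 1.01 ± 0.34, adjusted p = 0.0326 for Slc25a24.

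Slc25a34, which stayed below the minimum mean of 10 and entered no comparison, held 29.6 and 11.8 normalised reads in the 2 libraries of KCl 1 h (mean 20.7). The highest control held 7.83.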

How the results depend on the processing

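No alternative turned the sign of a called member in the RNA, but the promoter peak of Slc25a42, called at 0.23 at KCl 1 h, stood at -0.0779 with TMM. At an adjusted p below 0.01 the members called numbered 11 at BDNF 1 h, 13 at BDNF 10 h, 15 at KCl 10 h, 9 for BDNF against KCl at 10 h, 9 for BDNF 6 h against 1 h and 2 for KCl 10 h against 6 h. Member peaks at that threshold numbered 6, 2 and 1 at BDNF 1, 6 and 10 h and 0, 1 and 1 at KCl 1, 6 and 10 h. Against same-time controls 0 peaks were called at BDNF 10 h, 1 at KCl 1 h, 3 at KCl 6 h and 0 at KCl 10 h, with fewer control libraries in each comparison. With DESeq2 size factors 11 peaks were called at BDNF 10 h and 14 at KCl 10 h, TMM gave 10 at KCl 10 h, and limma on log2 values gave 2 at KCl 1 h and 8 at KCl 6 h; the cause was not tested.

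Leaving out each library in turn gave 9 to 17 members at BDNF 1 h, 16 to 20 at 6 h and 13 to 20 at 10 h, and 22 to 27, 22 to 26 and 14 to 24 at KCl 1, 6 and 10 h. It gave 16 to 17, 16 to 22 and 11 to 15 for BDNF against KCl at 1, 6 and 10 h, 11 to 14 for BDNF 6 h against 1 h, 21 to 23 for KCl 6 h against 1 h and 2 to 7 for KCl 10 h against 6 h. For peaks it gave 5 to 11, 2 to 5 and 1 to 5 at BDNF 1, 6 and 10 h and 0 to 5, 2 to 6 and 1 to 4 at KCl 1, 6 and 10 h. Of the calls at KCl 10 h, 11 of 23 were lost under at least 1 alternative, against 5 of 25 at KCl 6 h.

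The column letters did not pair the RNA libraries: over 36 pairs the correlation of same-letter deviations was -0.315 to 0.418, above 0.1 in 13. With the letter as a replicate block the members called numbered 18, 20 and 21 at BDNF 1, 6 and 10 h and 27, 25 and 25 at the same times of KCl. For the ATAC peaks no block could be fitted, since those columns carry no replicate number. With 2 libraries per group, low members such as Slc25a48, Slc25a45 and Slc25a5-ps and small ATAC peaks are limited by depth, and counting error is the least error their values carry.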
